A study of Mus musculus with 15 samples.

Results

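The genes described here make nitric oxide (NO), compete for its substrate arginine, or carry its signal through cyclic GMP (cGMP). There are 10 of them, the NO synthases Nos1, Nos2 and Nos3, the dimethylarginine hydrolases Ddah1 and Ddah2, the arginases Arg1 and Arg2, GTP cyclohydrolase Gch1, the phosphodiesterase Pde5a and the cGMP-dependent kinase Prkg1, of 19934 genes with a row of their own in the table. A gene was represented by the row that carried its symbol and no other, and, where there was more than 1 such row, by the row chosen by its measured values, the highest mean log2 intensity over the 15 arrays. Each of the 10 genes had exactly 1 row, so those values decided nothing, and all 10 symbols stood unchanged in RefSeq. Relative to control, Ddah1 and Pde5a were lower and Arg2 was higher in both ventilated groups. Nos1, Nos2, Nos3, Ddah2, Arg1, Gch1 and Prkg1 passed the test in none of the comparisons.
NO synthases convert arginine and oxygen into NO and citrulline and need tetrahydrobiopterin, whose synthesis begins with GTP cyclohydrolase. Arginases consume the same arginine to form ornithine and urea, and asymmetric dimethylarginine, an inhibitor of NO synthases that is released when methylated proteins are degraded, is cleared by the dimethylarginine hydrolases. In smooth muscle, NO activates soluble guanylate cyclase, the cGMP formed activates cGMP-dependent kinase and the vessel relaxes, until a phosphodiesterase such as Pde5a hydrolyses the cGMP. In the lung this route is known for lowering pulmonary vascular tone.
RNA of the right lung's inferior lobe was hybridised, with 1 array per mouse and 5 mice in each of 3 groups, all male C57BL/6N, an inbred laboratory strain, weighing 24 to 26 g. All mice were anaesthetised with ketamine (90 mg/kg) and acepromazine (1 mg/kg) and had catheters placed in an artery and in the trachea. Control mice breathed synthetic air on their own for 6 h, air ventilated mice received it from a ventilator for 6 h with 12 ml/kg per breath, 80 to 90 breaths per minute and 2 cmH2O of PEEP (the pressure left at the end of expiration), and 80 ppm H2S ventilated mice were treated alike with 80 ppm hydrogen sulfide in the gas. Lavage fluid was also taken from these lungs, and the lobe was homogenised whole, so that fewer cells of a type and less RNA per cell cannot be told apart. In every mouse each of 6 alveolar type II markers had an intensity of at least 1819, and the arrays had median intensities of 179.1 to 187.4.
Each mouse also bears a first and a second number in its label, and what they stand for is not stated. Only the second number is used here. Every group has 3 mice numbered 1 to 12 and 2 numbered 20 to 28, and values within these sets are given beside the results. A gene passed the test at an adjusted p under 0.05 in limma over 28361 rows, and intensities are linear array units. The tests compared groups within a row, and a level given beside the rows of an array, or summed over markers, is a description. The mean intensity of each of the 10 genes over the arrays was above 65.9, the lowest quartile of the row means. Both comparisons with control use the same 5 control mice.
In air ventilated mice, 1 of the 10 genes was higher and 2 were lower than in control, against 1.56% and 1.89% of all rows. In 80 ppm H2S ventilated mice, again 1 was higher and 2 were lower, against 3.92% and 3.93% of all rows. At the thresholds of the study, applied here to limma, 2 genes were called with air and 3 with H2S, against 0.959% and 1.45% of all rows. These thresholds were p no higher than 0.005, the adjusted p no higher than 0.1 and an effect size no lower than 1.7, taken here as a fold. The study used another test, so these calls need not match its lists. The ranges of the ventilated and the control mice did not overlap for 5 genes with air (5.55% of all rows) and for 3 genes with H2S (8.2%). The median log2 fold change of the 10 genes was -0.05 with air, where that of all rows was 0.01, and -0.10 with H2S, where that of all rows was 0.00. The genes that passed were the same 3 in both comparisons, Ddah1, Pde5a and Arg2.

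**Figure D1:**
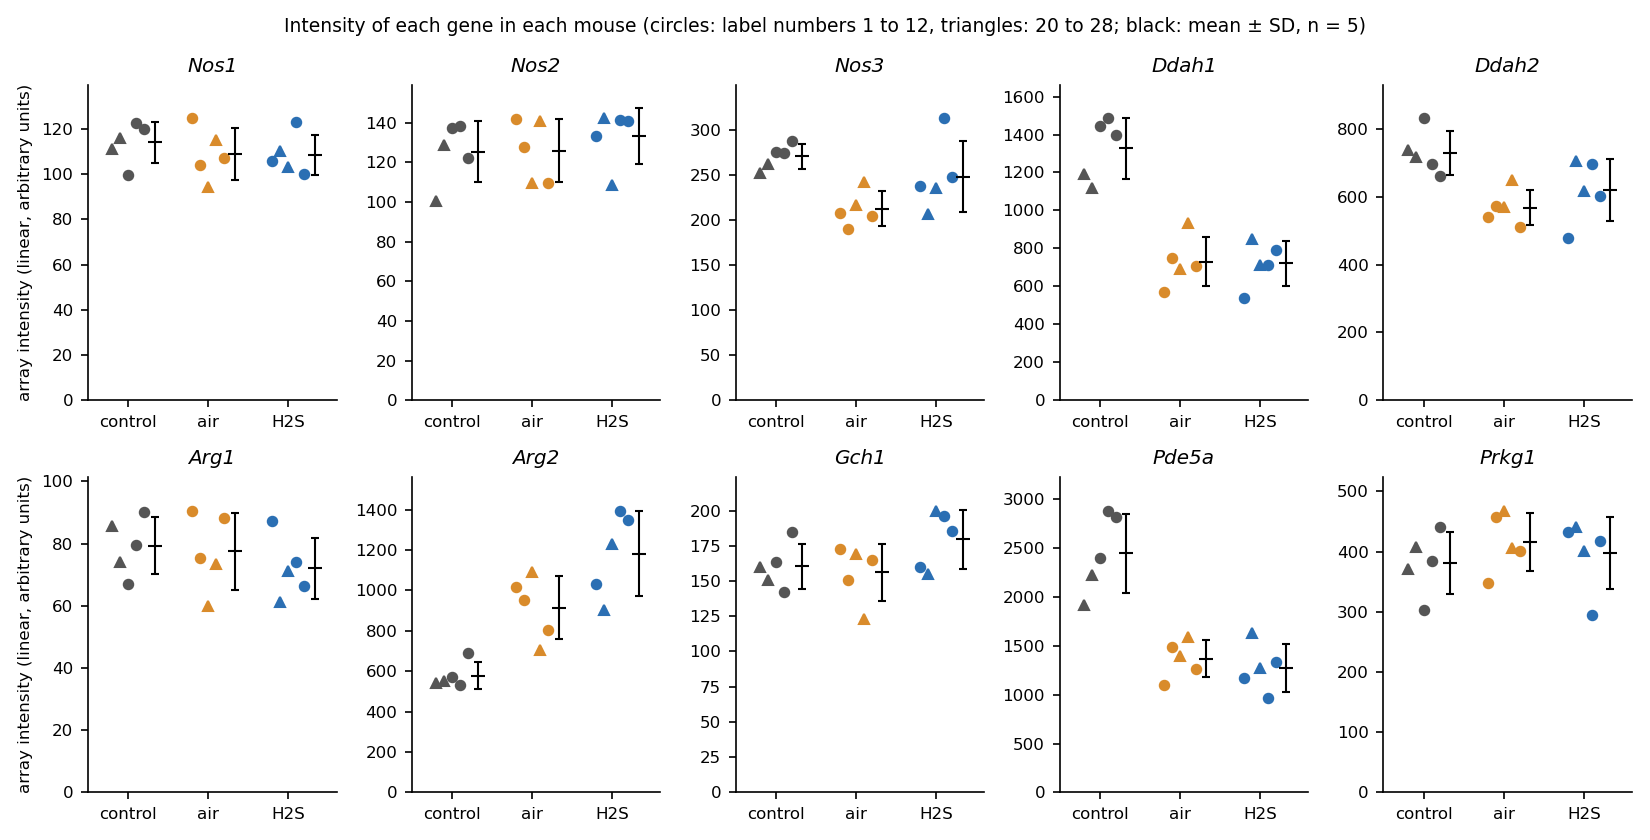
Array intensity (linear units, axes from 0) of the 10 genes in each mouse, by group, with the mean ± SD of 5 mice in black; circles are mice with label numbers 1 to 12 and triangles those with 20 to 28. Ddah1 and Pde5a of all ventilated mice lie below every control mouse and Arg2 above, while the groups overlap for Nos1, Nos2, Arg1, Gch1 and Prkg1.

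Nos3, the endothelial synthase, was lower in every air ventilated mouse than in any control mouse, but its change did not pass in limma. With air it passed in CyberT, the kind of regularised test that the study used, and in other alternatives given at the end. Control mice had Nos3 intensities of 252, 262, 275, 275 and 288, air ventilated mice 208, 189, 216, 242 and 205, and 80 ppm H2S ventilated mice 237, 206, 236, 312 and 248. The H2S group spanned the range from the air group to above control. The log2 fold change was -0.35 with air (SE 0.10, adjusted p = 0.0626), which did not pass, and -0.14 with H2S (SE 0.10, adjusted p = 0.501). H2S against air gave 0.22 (95% confidence interval 0.01 to 0.42, adjusted p = 0.842), so a higher Nos3 with H2S than with air was not established over all rows. Among mice numbered 1 to 12 the change with air was -0.48 (adjusted p = 0.0867), and among those numbered 20 to 28 it was -0.17 (adjusted p = 0.86). The air result lay close to the threshold and passed without air ventilated mouse 4 (-0.40, adjusted p = 0.0353), without 80 ppm H2S ventilated mouse 2 (adjusted p = 0.045) or without 80 ppm H2S ventilated mouse 4 (adjusted p = 0.019), the mice of the H2S group taking part through the shared estimate of the spread.
Nos2, the inducible enzyme of inflamed tissue, did not pass in any comparison, and its groups overlapped. Its intensity was 100.3 to 138 in control, 109.8 to 142 in air ventilated and 109 to 142 in 80 ppm H2S ventilated mice. The log2 fold change was 0.01 with air (95% confidence interval -0.23 to 0.24) and 0.09 with H2S (-0.15 to 0.32). Nos1, the neuronal enzyme, ranged from 99.8 to 123 in control, 94.5 to 125 in air ventilated and 100.3 to 123 in 80 ppm H2S ventilated mice. Its changes were -0.07 with air (-0.25 to 0.12) and -0.07 with H2S (-0.26 to 0.11). For both genes the ranges of all groups overlapped, and the bounds of these intervals did not go beyond 0.32 in size. In every mouse both genes lay below the array medians of 179.1 to 187.4, and the intervals describe the array signal only.
Gch1, the rate-limiting enzyme of tetrahydrobiopterin synthesis, overlapped between all groups. Control mice had 160.1, 151, 164, 142 and 185, air ventilated mice 173, 151, 169, 123 and 165, and 80 ppm H2S ventilated mice 160.2, 155, 200, 196 and 186. The order of the group means was air, control and H2S, and no neighbours in it differed beyond their spread. The log2 fold change was -0.04 with air (SE 0.11, adjusted p = 0.955), 0.16 with H2S (SE 0.11, adjusted p = 0.462) and 0.20 for H2S against air (95% confidence interval -0.02 to 0.43, adjusted p = 0.918).
Ddah1, which breaks down asymmetric dimethylarginine, was lower in both ventilated groups. Its intensities were 1189.8, 1117, 1443, 1485 and 1397 in control, 572, 751, 690.3, 932 and 706 in air ventilated and 539, 847, 711, 715 and 791 in 80 ppm H2S ventilated mice. The highest ventilated mouse, at 932, was below the lowest control mouse, at 1117, and the ventilated groups overlapped nearly completely. Ddah1 was 1.83-fold lower with air (log2 fold change -0.87, SE 0.14, adjusted p = 0.00327) and 1.85-fold lower with H2S (-0.89, SE 0.14, adjusted p = 0.00115). H2S against air gave -0.02, with a 95% confidence interval of -0.31 to 0.27. The estimates were larger in one set of label numbers than in the other. Among mice numbered 1 to 12 the change was -1.10 with air (adjusted p = 0.00518), while H2S gave -1.10 (adjusted p = 0.00377), and among mice numbered 20 to 28 it was -0.52 (adjusted p = 0.783) and -0.57 (adjusted p = 0.377). A test of that difference did not pass over all rows. It gave 0.58 with air (SE 0.25, adjusted p = 0.999) and 0.53 with H2S (SE 0.25, adjusted p = 0.996). Its unadjusted p in limma was 0.0359 with air and 0.0519 with H2S. Ddah1 passed in each of the 15 fits that left out 1 mouse, in both comparisons with control.
The 250 bases upstream of the Ddah1 start site (RefSeq, GRCm38.p6, chr3:145758442-145758691, plus strand) are printed here because Ddah1 and Pde5a fell together, and capitals would mark a match to any of 7 motifs searched, of which this window has none.
Ddah1: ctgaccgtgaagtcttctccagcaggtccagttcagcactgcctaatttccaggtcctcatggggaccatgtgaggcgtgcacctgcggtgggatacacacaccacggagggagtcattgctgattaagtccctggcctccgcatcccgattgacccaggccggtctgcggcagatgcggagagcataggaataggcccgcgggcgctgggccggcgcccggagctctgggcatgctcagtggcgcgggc
Ddah2, the other hydrolase of this pair, moved less. Control mice had 738, 716, 831, 697 and 662, air ventilated mice 539, 571, 569, 649.7 and 511, and 80 ppm H2S ventilated mice 479, 706, 616, 697 and 602. The air group lay wholly below control, by a narrow gap, and the H2S group overlapped both. The log2 fold change was -0.36 (SE 0.10) with air, at an adjusted p of 0.0768, and -0.24 (SE 0.10) with H2S, at 0.192, and neither passed. With air it passed without air ventilated mouse 4 (-0.41, adjusted p = 0.046) and without 80 ppm H2S ventilated mouse 1 (adjusted p = 0.0286). Like Nos3, it also passed with air in CyberT and in other alternatives given at the end. Over the 15 mice Ddah2 correlated with Ddah1 at r = 0.803 in log2 intensity, and at 0.65 after the group means were removed.
Arg2, the mitochondrial arginase, was the only one of the 10 genes that rose. Control mice had 541, 553, 569.9, 532 and 693, air ventilated mice 1019, 954, 1089.8, 705 and 805, and 80 ppm H2S ventilated mice 1032, 903, 1229, 1395 and 1347. The lowest ventilated mouse, at 705, was just above the highest control mouse, at 693, and the ventilated groups overlapped, with 3 H2S mice above every air mouse. Arg2 was 1.57-fold higher with air (log2 fold change 0.65, SE 0.14, adjusted p = 0.0136), below the fold of 1.7 taken for the effect size of the study. With H2S Arg2 was 2.03-fold higher (1.02, SE 0.14, adjusted p = 0.000472). H2S against air gave 0.37 (95% confidence interval 0.08 to 0.66), with an unadjusted p of 0.0165 in limma and an adjusted p of 0.656, so a larger rise with H2S was not established over all rows. Among mice numbered 1 to 12 the change was 0.63 with air (adjusted p = 0.0762), while H2S gave 1.07 (adjusted p = 0.00436), and among those numbered 20 to 28 it was 0.68 (adjusted p = 0.783) and 0.95 (adjusted p = 0.358). The change in the mice numbered 20 to 28 differed from that in the other mice by 0.05 with air (SE 0.29) and by -0.12 with H2S (SE 0.29). Leaving out 1 mouse at a time gave 0.58 to 0.74 with air and 0.95 to 1.11 with H2S, and every such fit passed.
Arg1, the cytosolic arginase of liver and of alternatively activated macrophages, had low intensities on these arrays. They ran from 67.0 to 90.3 in control, 60.1 to 90.6 in air ventilated and 61.3 to 87.2 in 80 ppm H2S ventilated mice. The log2 fold change was -0.04 with air (adjusted p = 0.965), while H2S gave -0.14 (adjusted p = 0.599). All groups overlapped.
Pde5a, the phosphodiesterase specific for cGMP that sildenafil inhibits, was lower in both ventilated groups. Its intensities were 1915, 2222, 2395, 2885 and 2815 in control, 1101, 1491, 1399.6, 1587 and 1267 in air ventilated and 1168, 1629.8, 1272, 967 and 1331 in 80 ppm H2S ventilated mice. No ventilated mouse reached the lowest control mouse, and the ventilated groups overlapped. Pde5a was 1.78-fold lower with air (log2 fold change -0.83, SE 0.14, adjusted p = 0.0052) and 1.93-fold lower with H2S (-0.95, SE 0.14, adjusted p = 0.00105). H2S against air gave -0.11, with a 95% confidence interval of -0.42 to 0.19. Among mice numbered 1 to 12 the change was -1.08 with air (adjusted p = 0.00562), while H2S gave -1.23 (adjusted p = 0.00197), and among those numbered 20 to 28 it was -0.47 (adjusted p = 0.783) and -0.52 (adjusted p = 0.381). As for Ddah1, the test of the difference between the sets did not pass over all rows. It gave 0.61 with air (SE 0.24, adjusted p = 0.999) and 0.71 with H2S (SE 0.24, adjusted p = 0.996). The unadjusted p in limma was 0.0246 with air and 0.0104 with H2S. Pde5a passed in every fit that left out 1 mouse.
The window upstream of Pde5a (RefSeq, GRCm38.p6, chr3:122728908-122729157, plus strand) holds a GC box, GGGCGG, 82 to 77 bases before the start site, which is in capitals.
Pde5a: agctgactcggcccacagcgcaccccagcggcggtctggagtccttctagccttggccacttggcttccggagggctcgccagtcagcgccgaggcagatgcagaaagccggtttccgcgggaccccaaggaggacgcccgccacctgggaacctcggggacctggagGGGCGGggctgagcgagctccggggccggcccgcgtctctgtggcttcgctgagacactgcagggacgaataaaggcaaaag
These windows have 68.4% GC and 22 CpG dinucleotides for Pde5a and 64% and 17 for Ddah1, where the medians of 32851 mouse promoter windows of 250 bases were 52.4% and 6. Of the 10 genes, 6 had a window in the table used, with 7 windows in all, and both strands were searched. The GC box was in 5 of the 7 and in 32.7% of all windows. The AP-1 site TGANTCA (6.75% of all windows), the E-box CACGTG (6.02%) and the glucocorticoid receptor motif AGAACA (16.1%) were in none of the 7. The CRE motif TGACG (17.8%) was in 2, CCAAT (33.8%) in 2 and TATAAA (12.4%) in 1. A match or its absence describes these letters only.
Prkg1, the kinase that cGMP activates in vascular smooth muscle, did not pass in any comparison. Its intensities were 371, 408, 303, 384 and 441 in control, 348, 458, 468, 406 and 401 in air ventilated and 433, 442, 401, 294 and 418 in 80 ppm H2S ventilated mice. All groups overlapped. The log2 fold change was 0.13 with air (95% confidence interval -0.14 to 0.39, adjusted p = 0.777) and 0.06 with H2S (-0.21 to 0.32, adjusted p = 0.878).

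**Figure D2:**
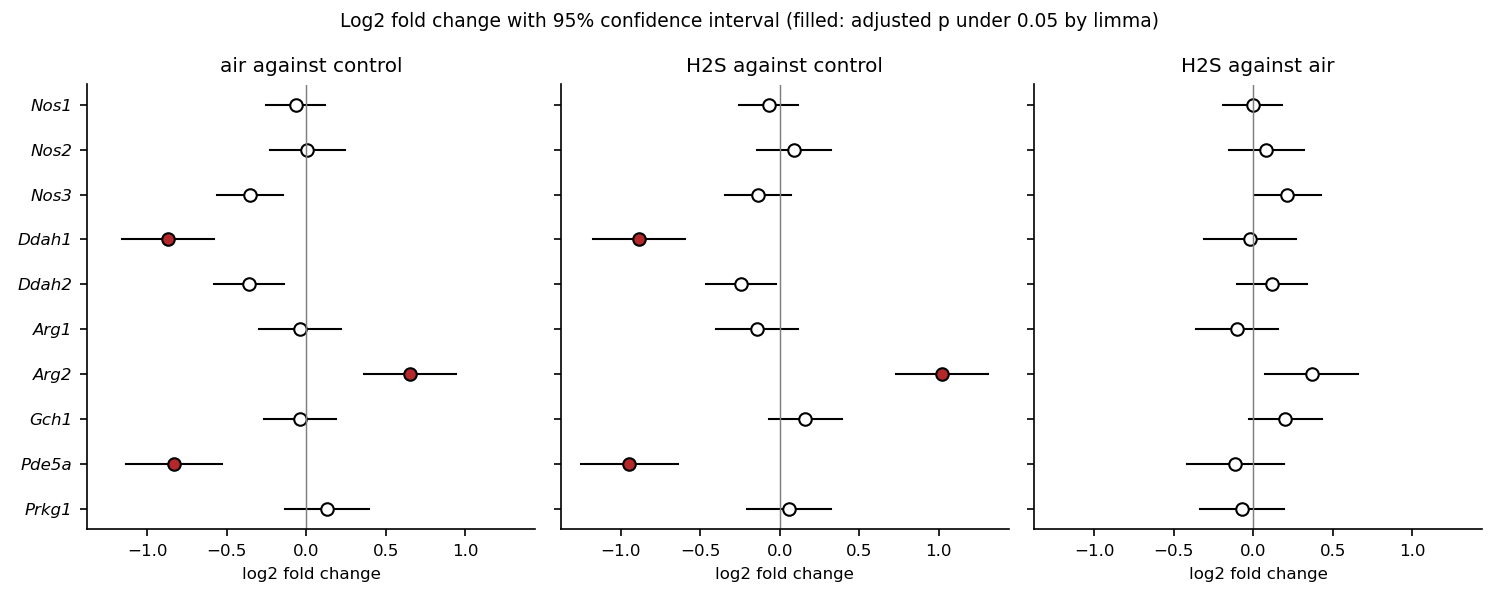
Log2 fold change of the 10 genes (points) with its 95% confidence interval (lines) in the 3 comparisons; filled points passed an adjusted p under 0.05. Ddah1 and Pde5a lie below 0 and Arg2 above 0 in both comparisons with control, and no point is filled for H2S against air.

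Between the ventilated groups, 0 of the 10 genes passed the test in limma in either direction, against 0.0705% of all rows higher and 0.00705% lower with H2S. Of the 10, 2 had an unadjusted p under 0.05 in limma, Arg2 and Nos3, at ranks 712 and 1448 by p among all 28361 rows. CyberT, the regularised test run as an alternative, passed 0. No gene was called at the thresholds of the study (0.0599% of all rows) and none separated the ventilated groups (1.2%). The median log2 fold change was 0.04, where that of all rows was -0.01.
The size of the changes within the label number sets is plotted for the 5 genes whose air ventilated mice lay apart from control. None of the 10 passed a test of its level between the sets within the groups (adjusted p = 0.298 to 0.851).

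**Figure D3:**
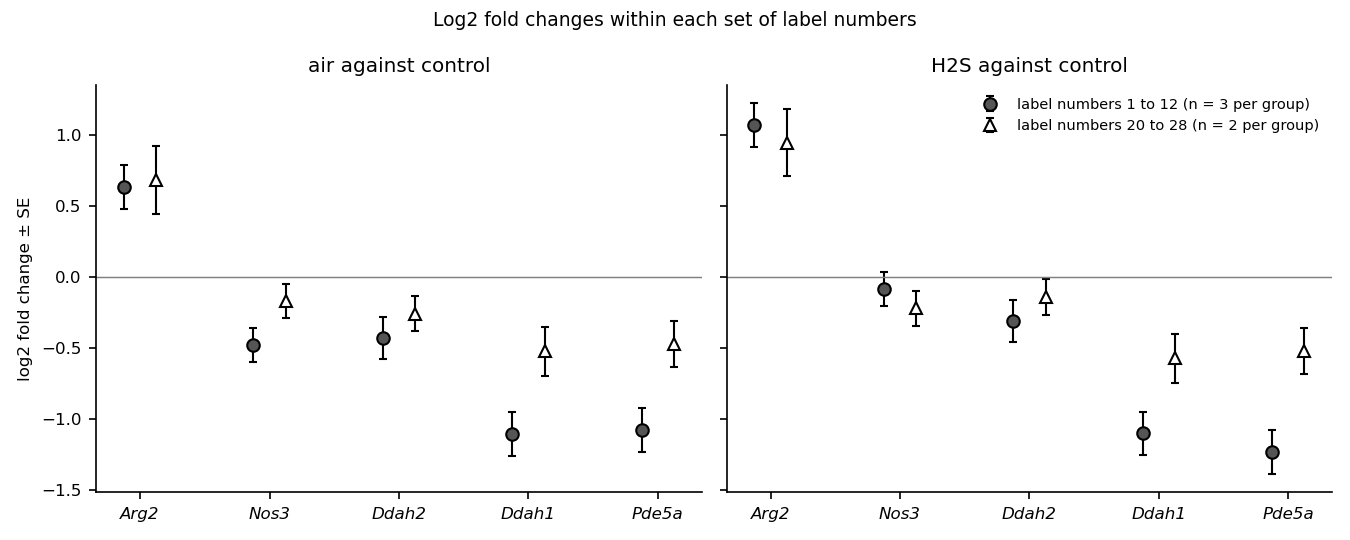
Log2 fold change ± SE (limma) of Arg2, Nos3, Ddah2, Ddah1 and Pde5a among mice with label numbers 1 to 12 (circles, 3 per group) and 20 to 28 (triangles, 2 per group). Arg2 lies at 0.63 and 0.68 with air, whereas Ddah1 and Pde5a are at -1.08 to -1.23 in mice numbered 1 to 12 and at -0.47 to -0.57 in those numbered 20 to 28.

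Genes with the profile most like that of each of the 10 were taken by Pearson's r of log2 intensity over the 15 mice among 19934 genes, as a description. The mice share groups, so r is also given after the group means were removed. For Pde5a the first was Gucy1a1 (r = 0.983, 0.934 within groups), the alpha subunit of the soluble guanylate cyclase that makes the cGMP Pde5a destroys, followed by Gsap (0.981, 0.911) and Ncald (0.976, 0.892). For Ddah1 they were Prep (0.975, 0.882), Gja5, a connexin of arterial endothelium (0.973, 0.89), and Dpysl3 (0.972, 0.898). Ddah1 and Pde5a themselves correlated at 0.937, and at 0.709 within groups.
For Arg2 the most similar genes were Il1f9, an interleukin 1 family cytokine (0.963, 0.808 within groups), Lcn2, the siderophore-binding lipocalin of acute inflammation (0.953, 0.792), and Jun, an AP-1 subunit (0.944, 0.668). Arg2 and Gch1 correlated at 0.607 and, within groups, at 0.844. For Nos3 they were Kmo (0.897, 0.831), Wfdc1 (0.897, 0.778) and Vegfa (0.889, 0.791). Ddah2 was most like Yif1b (0.942, 0.899) and Prkg1 most like Braf (0.938, 0.934). Nos1, Nos2, Arg1 and Gch1 were most like Col5a3 (0.882, 0.893), D030025P21Rik (0.783, 0.823), Olfr1277 (0.927, 0.937) and Pdcd2l (0.833, 0.774). The next for Arg1 were Olfr5 (0.916, 0.912) and Olfr786 (0.912, 0.933), so that all 3 were olfactory receptor genes. What this likeness reflects was not tested.

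**Figure D4:**
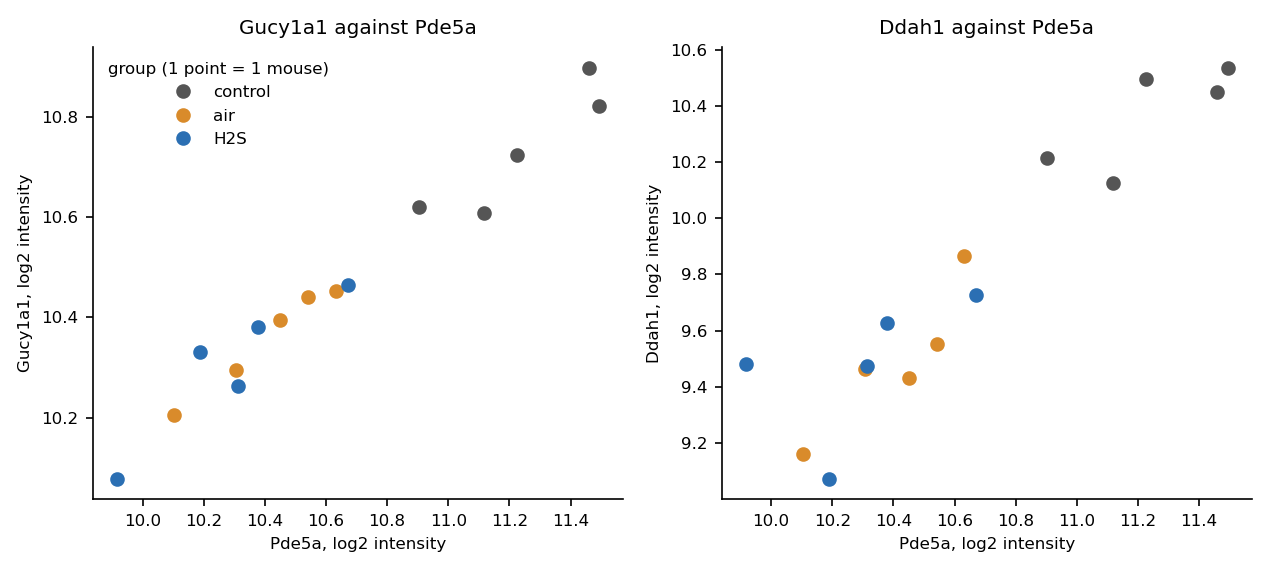
Log2 intensity of Gucy1a1 and of Ddah1 against that of Pde5a, with 1 point per mouse and colours for the groups. Control mice lie at the upper right in both panels. Within the groups r is 0.934 for Gucy1a1, which was picked for its high r with Pde5a. It is 0.709 for Ddah1, which is shown because it fell together with Pde5a.

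Beyond these genes, 69 others of the pathway were listed by role and 64 were measured. With air 0 were higher and 1 was lower (1.56%, against 1.89% of all rows). With H2S 2 were higher (3.12%, against 3.92%) and 3 lower (4.69%, against 3.93%), shares near those of all rows. Between the ventilated groups limma passed 0 and CyberT 0. In limma 4 had an unadjusted p under 0.05, at ranks 468 to 1430 by p among all 28361 rows. The median log2 fold change of the 64 was -0.08 with air (all rows 0.01), -0.01 with H2S (all rows 0.00) and 0.04 for H2S against air (all rows -0.01). On cGMP synthesis, Gucy1a1 was 1560.9 to 1908 in control, 1180.2 to 1402 in air ventilated and 1082 to 1413 in 80 ppm H2S ventilated mice, so that no ventilated mouse reached a control mouse. Its log2 fold change was -0.38 with air (SE 0.09, adjusted p = 0.0218) and -0.43 with H2S (SE 0.09, adjusted p = 0.00545). The air result did not pass without control mouse 4 (adjusted p = 0.07), control mouse 5 (0.0654), air ventilated mouse 1 (0.0633) or air ventilated mouse 5 (0.0637). Gucy1b1, Gucy1a2 and Npr3, of the same list, were chosen after their values were seen, and none of them passed. Gucy1b1, the beta subunit, changed by -0.29 with air (adjusted p = 0.169) and by -0.33 with H2S (adjusted p = 0.0615). Gucy1a2, another alpha subunit, changed by -0.07 (adjusted p = 0.952) and -0.12 (adjusted p = 0.781). Npr3, a natriuretic peptide receptor, changed by -0.74 (adjusted p = 0.0709) and -0.58 (adjusted p = 0.117), with every H2S mouse below control.
Npr1, the membrane guanylate cyclase that serves as the receptor of atrial natriuretic peptide, had a log2 fold change with H2S of -0.46 (SE 0.10, adjusted p = 0.00852), with control mice at 606 to 784 and H2S mice at 426 to 558. With air it was -0.25 (adjusted p = 0.221), and H2S against air gave -0.21 (95% confidence interval -0.41 to 0.00, adjusted p = 0.882). Of 10 listed phosphodiesterase genes other than Pde5a, which include the subunit gene Pde6d, 1 was higher with H2S and 9 did not pass. That was Pde9a, which has high affinity for cGMP (0.35, SE 0.09, adjusted p = 0.0255), and its groups overlapped. With air Pde9a changed by 0.22 (adjusted p = 0.252), and H2S against air gave 0.13 (adjusted p = 0.997). Hsp90aa1, a chaperone that binds Nos3, rose with H2S (log2 fold change 0.61, SE 0.14, adjusted p = 0.0142). Its range was 1748 to 2393 in control and 2473 to 4014 with H2S. With air it changed by 0.24 (adjusted p = 0.533), and H2S against air gave 0.37 (adjusted p = 0.671). The 5 other regulators of the synthases did not pass. Among 11 genes of arginine supply and use, 1 was lower with H2S and 10 did not pass. That gene was Slc7a7, a transporter of cationic amino acids (-0.53, SE 0.14, adjusted p = 0.0283), whose H2S mice overlapped control. With air Slc7a7 changed by -0.40 (adjusted p = 0.156), with every air mouse below control. H2S against air gave -0.13 for it (adjusted p = 0.997). None of 5 cofactor genes, 8 genes of arginine methylation, 10 effectors and targets of the kinase or 4 genes of NO removal passed in any comparison.
The calls for Slc7a7 and Pde9a depended on single mice. Slc7a7 did not pass without control mouse 3 (adjusted p = 0.0663), control mouse 4 (0.0652), 80 ppm H2S ventilated mouse 1 (0.0761), mouse 3 (0.0775) or mouse 5 (0.0615), and Pde9a did not pass without control mouse 2 (0.0555), control mouse 4 (0.0726), 80 ppm H2S ventilated mouse 1 (0.0565), mouse 3 (0.0561) or mouse 4 (0.0626). Npr1, Hsp90aa1 and, with H2S, Gucy1a1 passed in all 15 fits.

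**Figure D5:**
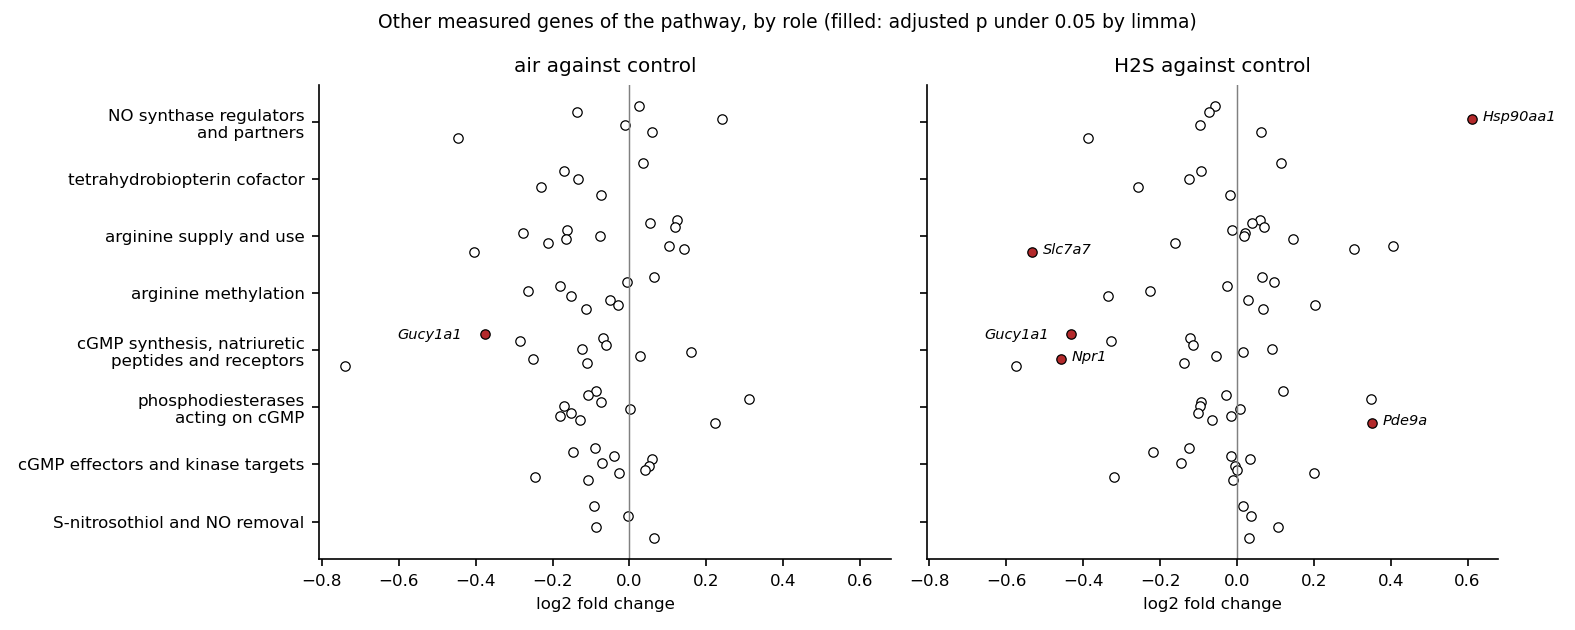
Log2 fold change of the 64 other measured genes of the pathway, by role (1 point per gene), with air and with H2S; filled, named points passed an adjusted p under 0.05. Gucy1a1 at -0.38 is the only filled point with air, and Gucy1a1, Npr1, Slc7a7, Hsp90aa1 and Pde9a are filled with H2S.

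Markers of several cell types also differed between the groups, and the shares of all rows beside their counts are, for air, 1.56% (higher) and 1.89% (lower), and for H2S 3.92% and 3.93%. B cell markers had the largest median change of the 12 marker lists, with 4 of 4 lower in both comparisons (median log2 fold change -1.41 with air and -1.54 with H2S) and summed intensities of 2616 to 4525 in control, 928 to 2466 in air ventilated and 860.0 to 1855 in 80 ppm H2S ventilated mice. Of 5 monocyte markers, 1 was lower in both comparisons, Cx3cr1 (-0.50, adjusted p = 0.042 with air, and -0.66, adjusted p = 0.00474 with H2S), and the median of the list was -0.50 and -0.45. Of 6 alveolar type I markers, 0 passed with air and 2 were lower with H2S. Of 8 endothelial markers, 2 were lower with air, Kdr (-0.58, adjusted p = 0.00952) and Tek (-0.45, adjusted p = 0.049), and 3 with H2S. The median of the list was -0.28 with air and -0.13 with H2S. Cdh5 (-0.05 and -0.01) and Pecam1 (-0.10 and -0.12) did not pass, and Esam, which alone lay above 0, was 0.12 in both. The summed intensity of the 8 was 29757 to 33848 in control, 26526 to 28515 in air ventilated and 26665 to 29659 in 80 ppm H2S ventilated mice. Of 6 smooth muscle markers, 0 passed with air and 1 was lower with H2S, with sums of 7742 to 11649, 7706 to 9689 and 7374 to 8815. Of 5 pericyte markers, 0 passed with air and 1 was higher and 1 lower with H2S, with sums of 3456 to 3966, 2890.0 to 3616 and 3072 to 3568. Of 5 alveolar macrophage markers, 1 was higher with air and 3 with H2S, with sums of 3093 to 3549, 3704 to 4044 and 4075 to 4295. For H2S against air 1 of these 5 was higher, Pparg (0.39, adjusted p = 0.0317), against 0.0705% of all rows. No gene of the other marker lists passed between the ventilated groups. Of 7 neutrophil markers 1 was higher with air and 2 with H2S, with sums of 4814 to 9716, 8138 to 12045 and 7513 to 14586. With H2S, 1 of 6 alveolar type II and 1 of 4 ciliated and club epithelium markers were lower, and 0 of 6 fibroblast and 0 of 6 T and NK cell markers passed in either comparison with control. The part of these cells in the changes of Ddah1, Pde5a, Nos3 and Arg2 was not tested.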

How the data were processed

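Gene expression was measured on Affymetrix whole-transcript arrays of the lung of 15 mice. The authors read the images with Command Console 3.0, subtracted a GC-dependent background in Genedata Expressionist Refiner 6.1, quantile normalized and summarized probes by RMA, and the deposited intensities are linear. The design had assumed log2 values, so log2 was taken here. Genes were named from the platform table (28361 rows, of which 21780 have 1 symbol, 1617 several and 4964 are unnamed here). The genes, the lists and the tests were chosen with earlier results of these data known.
The limma package (3.58.1, under R 4.3.3; lmFit, contrasts.fit, eBayes) was fitted to all 15 arrays without covariates, with Benjamini-Hochberg adjustment over all rows, and was tested on simulated data. Plots were drawn with matplotlib 3.10.9 under Python 3.11.15. The text names the 10 genes, up to 3 passing genes per list with the smallest adjusted p, and up to 3 most similar genes for each of the 10. Gucy1b1, Gucy1a2 and Npr3, which did not pass, are named besides. Alternatives were CyberT (confidence 15, window 101), a variance trend with robust fitting, array weights, 2 groups only, other normalizations and filters, 1 row or the mean of the rows per gene, the label numbers as a block, either set of numbers alone, the thresholds of the study and leaving out each mouse. Over 13 pairs of mice from different groups that share a run of 4 label numbers, the deviations from the group means had a mean r of 0.179 (-0.179 to 0.358). Over 62 pairs of mice from different groups and different runs the mean r was -0.037. The mice were not treated as paired, and a fit with the runs as a block is given at the end. The labels list separate mice, whose number limits the precision. Mice breathing H2S on their own are not analysed here.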

Additional observations from a re-analysis of the deposited data

Results flagged for a closer look

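Of 30 groups of 5 mice, for 10 genes in 3 groups, 3 held a mouse far from the others, and chance flags about 1 in 20 groups. Arg2 was 693 in control mouse 5, where the median of the other control mice was 547. Nos2 was 109 in 80 ppm H2S ventilated mouse 3, against a median of 141. Prkg1 was 294 in 80 ppm H2S ventilated mouse 4, against a median of 425. Without control mouse 5, the log2 fold change of Arg2 with air was 0.72 (SE 0.14, adjusted p = 0.0179).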

How the results depend on the processing

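Apart from leaving out mice, 14 alternatives gave 420 values for the 10 genes, of which 390 kept their direction and their side of the threshold. The 6 results that passed kept both in 76 of 84 values, with 8 no longer passing (the label number sets alone, and Arg2 with air at the thresholds of the study) and 0 reversed. The count of the 10 genes that passed with air was 3 and became 5 with CyberT, with trend and robust fitting, with array weights and with dim rows left out. The added genes were Nos3 (adjusted p = 0.0244, 0.0459, 0.0111 and 0.0382) and Ddah2 (0.0264, 0.0463, 0.0229 and 0.0475). The share of all rows that passed in each alternative is not given here. A changed count, here or for the other 64 genes, therefore cannot be read as particular to these genes. Mice numbered 20 to 28 alone passed 0 of the 10 with air and 0 with H2S, with 2 mice per group. Leaving out each mouse passed 3 to 5 of the 10 with air (5 without air ventilated mouse 4), 3 to 3 with H2S and 0 to 0 between them. Of the other 64 genes, the 1 that passed with air became 3 with CyberT, 3 with array weights, 2 with dim rows left out, 0 in either number set and 0 at the thresholds of the study, and 0 to 2 on leaving out a mouse (0 without control mouse 4 or 5 or air ventilated mouse 1 or 5, 2 without air ventilated mouse 4). The 5 that passed with H2S became 8 with CyberT, 8 with trend and robust fitting, 9 with array weights, 3 with 2 groups only, 8 with quantile normalization again, 2 in mice numbered 1 to 12, 0 in those numbered 20 to 28 and 0 at the thresholds of the study, and 3 to 7 on leaving out a mouse (3 without control mouse 4 or 80 ppm H2S ventilated mouse 3). Between the ventilated groups it was 0 to 0. With the run of 4 label numbers as a replicate block, 3 of the 10 genes passed with air, 3 with H2S and 0 between them, and of the other 64 genes 2 passed with air in place of 1. The block changed no other count by over 1.5 times.
Directions reversed only for changes that had not passed. In mice numbered 1 to 12, Arg1 with air was 0.11, Gch1 with air 1e-04, Nos2 with air -0.075 and Ddah1 for H2S against air 0.0017. In mice numbered 20 to 28, Nos1, Nos2 and Nos3 for H2S against air were 0.033, -3e-04 and -0.054. With array weights, Nos2 with air was -0.037 and Ddah1 for H2S against air 0.030. Nos1 for H2S against air was 0.0077 with quantile normalization again and 0.0037 with median centring. Leaving out a mouse turned Arg1 with air (-0.099 to 0.049), Gch1 with air (-0.083 to 0.041), Nos2 with air (-0.072 to 0.054), Nos1 (-0.055 to 0.046), Ddah1 (-0.10 to 0.083) and Prkg1 (-0.14 to 0.032) for H2S against air, and Prkg1 with H2S (-0.025 to 0.16). The cause of these shifts was not tested.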
